A study of Caenorhabditis elegans with 4 samples.

Results

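The regulators of the moulting cycle oscillator were 8 genes of Caenorhabditis elegans, chosen by name, of 20392 genes in the deposited count table. They are the period homolog lin-42, the nuclear hormone receptor genes nhr-23, nhr-25 and nhr-85, the transcription factor genes blmp-1 and grh-1, the kinase gene kin-20 and the F-box gene dre-1. Each name matched 1 gene identifier, and all 8 passed the filter on low counts. They lie on chromosomes I (nhr-23, nhr-85, blmp-1 and grh-1), II (lin-42), V (dre-1) and X (nhr-25 and kin-20).

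Larvae of C. elegans replace their cuticle at the end of each larval stage, and many epidermal genes are transcribed in pulses that repeat with each moult. NHR-23, the homolog of the mammalian ROR receptors, is required for moulting, and GRH-1, the Grainyhead homolog, and BLMP-1, the homolog of Blimp-1, are transcription factors of the same rhythm. LIN-42, related to the clock protein Period, acts as a repressor in developmental timing, so that the circuit resembles parts of a circadian clock without being tied to the day.

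Total RNA was sequenced from sorted L1 larvae, the first larval stage, in 2 groups of 2 libraries. The wild type was the Bristol strain N2. The mutant strain GW1125 carries on chromosome IV the allele xe17 of lsm-8, into which a red pharyngeal marker was placed, and keeps it over nT1[qIs51], a balancer of chromosomes IV and V with a green marker. LSM-8 belongs to the nuclear LSM2-8 ring and is absent from the related ring of the cytoplasm. Per the labels' protocols, all larvae hatched without food for 16 hours, were sorted for size and for a pharynx that was not green, and were fed for 2.5 hours before RNA extraction. Homozygous mutants of such a strain descend from heterozygous mothers, and 1 mutant strain was sequenced. The comparison asks which transcripts differ when lsm-8 is lost. The mutant transcript of lsm-8 was at 3.49 ± 0.340 CPM (read counts relative to the TMM-scaled library total; SD, n = 2), against 15.6 ± 0.390 CPM in wild type. No label tells whether replicate libraries were grown separately, so every p-value here rests on a spread between samples that may be technical.

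Of the 8 oscillator genes, nhr-85, lin-42, dre-1, nhr-23, blmp-1 and nhr-25, rose in the mutant, and 0 fell. The count was 6 of 8 at an adjusted p under 0.05 in edgeR's quasi-likelihood test over all genes, where 28.2% of the 16771 tested genes were called, 13.5% as higher and 14.8% as lower. The largest rise was that of nhr-85 at 2.41-fold, lin-42 followed at 1.77-fold, and the other 4 rose 1.29-fold to 1.35-fold. The genes kin-20 and grh-1 were not called. The median log2 fold change was 0.40 over the 8 genes and -0.01 over all tested genes. Both mutant libraries lay above both wild-type libraries for 7 of the 8 genes and below them for 0, against 30.9% of tested genes above and 31.9% below. Without mutant replicate 1 the count fell to 3, namely nhr-85, dre-1 and nhr-25.

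**Figure D1:**
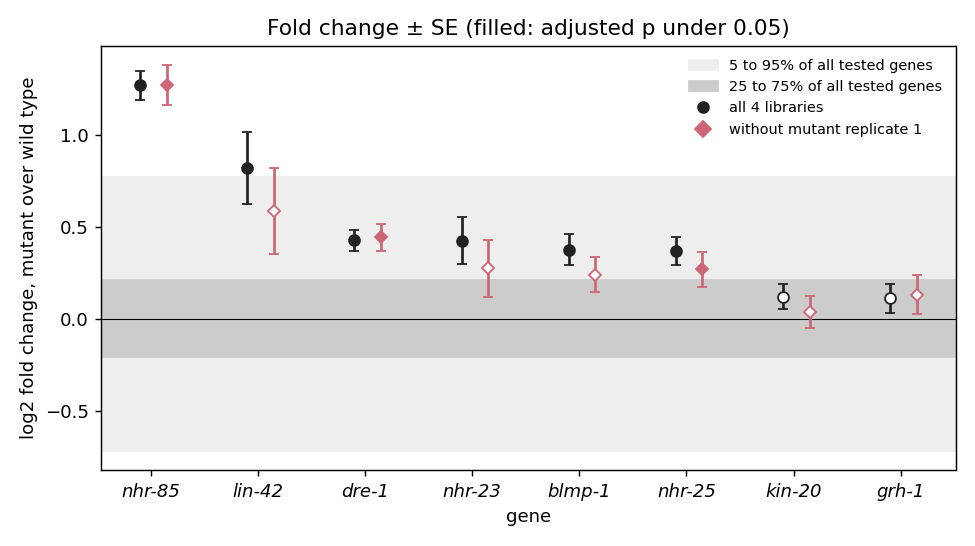
Log2 fold change (mutant over wild type, vertical axis) with its SE for each of the 8 genes, from all 4 libraries (circles) and without mutant replicate 1 (diamonds); filled symbols have an adjusted p under 0.05, and grey bands hold 25 to 75% and 5 to 95% of all tested genes. The circles of nhr-85 at 1.27 and lin-42 at 0.82 lie above both bands, and the diamonds of lin-42, nhr-23 and blmp-1 are open.

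Levels differed widely between these regulators. Per gene length (RPKM, CPM per 1000 bases of the width in the deposited table), dre-1 was the most abundant in each library and lin-42 the least. Wild-type larvae held 34.5 ± 1.25 RPKM of dre-1 (SD, n = 2) and 19.7 ± 0.934 RPKM of kin-20. The genes blmp-1 (11.3 ± 0.655 RPKM), nhr-25 (11.1 ± 0.522 RPKM) and grh-1 (11.02 ± 0.313 RPKM) came next, and these neighbours did not differ beyond their spread. They were followed by nhr-85 at 7.13 ± 0.298 RPKM, nhr-23 at 1.69 ± 0.102 RPKM and lin-42 at 0.598 ± 0.122 RPKM. Among all tested genes, 83.2% had a lower wild-type RPKM than dre-1 and 19.8% had a lower one than lin-42.

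In the mutant nhr-85 changed its place in this order. It ranked 6 of 8 in each wild-type library and 3 of 8 in each mutant library. Its mutant level of 17.2 ± 0.0365 RPKM was above blmp-1 (14.6 ± 1.87 RPKM), nhr-25 (14.3 ± 1.36 RPKM) and grh-1 (11.9 ± 0.228 RPKM). Both ends of the order were the same in each library, with dre-1 at 46.4 ± 0.685 RPKM and kin-20 at 21.4 ± 1.67 RPKM in the mutant, and nhr-23 at 2.26 ± 0.315 RPKM and lin-42 at 1.05 ± 0.219 RPKM. In the mutant, nhr-25 and blmp-1 still did not differ beyond their spread, while grh-1 ranked below both in each mutant library. The labels name whole larvae, so more cells of a type and more RNA per cell cannot be told apart, nor can fewer cells and less RNA.

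**Figure D2:**
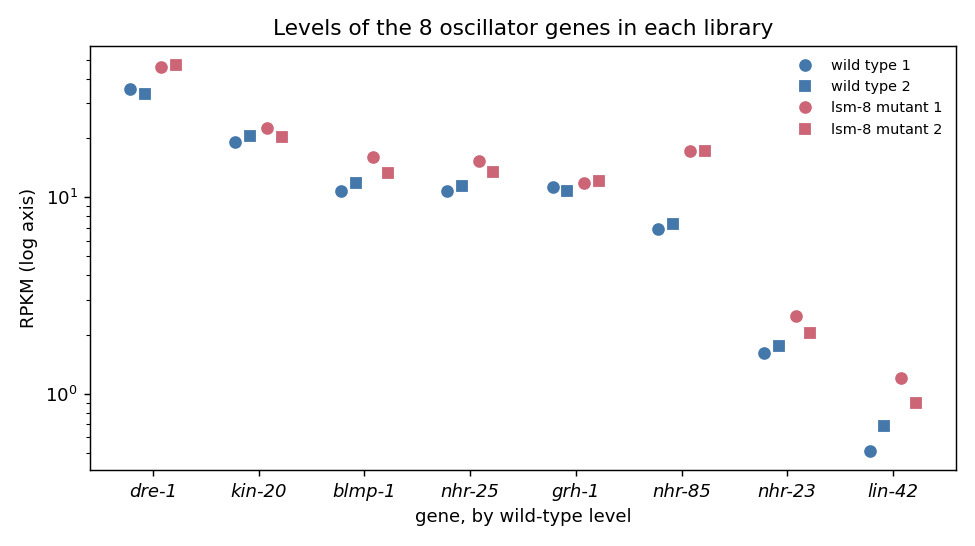
RPKM of the 8 genes (vertical log axis) in each of the 4 libraries, ordered by wild-type level; blue points are wild type and red points the lsm-8 mutant. The red points of nhr-85, at 17.2 RPKM in both mutant libraries, stand well above its blue points at 6.92 and 7.34 RPKM.

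The receptor gene nhr-85 (WBGene00003675, chromosome I), a homolog of the mammalian Rev-erb repressors, was found at 11.2 and 11.9 CPM in wild-type larvae and at 27.9 and 27.98 CPM in mutant larvae. The replicates were close together and the groups far apart. Its log2 fold change was 1.27 (SE 0.08, edgeR adjusted p = 8.13e-10), larger in size than that of 97.2% of tested genes. The WBcel235 annotation, used here only for gene structure, places exons of npr-14, a predicted neuropeptide receptor gene, on the opposite strand where they overlap nhr-85. The level of npr-14 was 4.84 and 4.42 CPM in wild-type larvae and 5.17 and 4.95 CPM in mutant larvae. They were not called changed (log2 fold change 0.13, SE 0.13, edgeR adjusted p = 0.505). No source used here tells whether reads were assigned by strand.

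The ROR homolog nhr-23 (WBGene00003622, chromosome I) reached 4.90 and 5.34 CPM in wild-type larvae and 7.54 and 6.19 CPM in mutant larvae. The groups did not overlap, but mutant replicate 2 lay closer to wild type than to mutant replicate 1. The log2 fold change was 0.43 (SE 0.13, edgeR adjusted p = 0.0164). Without mutant replicate 1 it was 0.27 (SE 0.16) and was not called (edgeR adjusted p = 0.209).

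Per length, nhr-85 was more abundant than nhr-23 in each library. The ratio of nhr-23 to nhr-85 in RPKM, which does not depend on how libraries are scaled, was 0.234 and 0.240 in wild-type larvae and 0.145 and 0.118 in mutant larvae. The groups did not overlap, and an exact permutation test of 2 against 2 libraries cannot give a two-sided p below 0.333. NHR-23 and NHR-85 are related to activating and repressing receptors that share binding sites in the mammalian clock.

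The receptor gene nhr-25 (WBGene00003623, chromosome X), homolog of the fly receptor FTZ-F1, acts in the epidermis and in moulting. Its level was 27.5 and 29.4 CPM in wild-type larvae and 39.3 and 34.3 CPM in mutant larvae. The mutant libraries were both higher, mutant replicate 1 more so. Its log2 fold change was 0.37 (SE 0.08, edgeR adjusted p = 0.00110), and it was called without any single library. The ratio of nhr-25 to nhr-23 in RPKM was 6.63 and 6.51 in wild type and 6.15 and 6.54 in the mutant, so that these groups overlapped.

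The period homolog lin-42 (WBGene00018572, chromosome II) was the member with the fewest reads, 74 and 93 counts in wild type and 336 and 226 counts in the mutant. These equal 1.39 and 1.86 CPM in wild-type larvae and 3.28 and 2.44 CPM in mutant larvae. The groups did not overlap, and on the log2 scale the libraries within each group differed more than for any other of the 8 genes. The exact 95% Poisson intervals, which cover counting error only, ran from 1.09 to 1.74 CPM and from 1.50 to 2.28 CPM in wild type, and from 2.94 to 3.65 CPM and from 2.13 to 2.77 CPM in the mutant. Thus the interval of wild type replicate 2 overlapped that of mutant replicate 2 and that of wild type replicate 1, while the intervals of the mutant libraries did not overlap each other. The log2 fold change was 0.82 (SE 0.20, edgeR adjusted p = 0.00398), and 0.59 (SE 0.23, edgeR adjusted p = 0.0503) without mutant replicate 1. The annotation lists 7 transcripts of lin-42, which gene counts do not tell apart.

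The kinase gene kin-20 (WBGene00002203, chromosome X) encodes the relative of casein kinase 1 delta and epsilon, kinases that bind and phosphorylate Period in animal clocks. Its level was 49.4 and 52.8 CPM in wild-type larvae and 58.6 and 52.4 CPM in mutant larvae. The groups overlapped, and kin-20 was the only member for which they did. Its log2 fold change was 0.12 (SE 0.07, edgeR adjusted p = 0.213). In RPKM, lin-42 stood at 0.0269 and 0.0337 of the kin-20 level in wild type and at 0.0535 and 0.0444 in the mutant, without overlap.

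The transcription factor gene blmp-1 (WBGene00003847, chromosome I) reached 26.5 and 28.8 CPM in wild-type larvae and 39.1 and 32.6 CPM in mutant larvae. BLMP-1 helps to set the amplitude of cycling transcripts. The mutant libraries were both higher but differed from each other by more than the wild-type libraries did. Its log2 fold change was 0.38 (SE 0.08, edgeR adjusted p = 0.00241), and 0.24 (SE 0.10, edgeR adjusted p = 0.0518) without mutant replicate 1.

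The F-box gene dre-1 (WBGene00001089, chromosome V) encodes the substrate receptor, related to human FBXO11, of an SCF ubiquitin ligase that marks BLMP-1 for degradation. Its level was 117 and 111 CPM in wild-type larvae and 152 and 155 CPM in mutant larvae. Replicates were close together and the groups well apart. Its log2 fold change was 0.43 (SE 0.06, edgeR adjusted p = 1.33e-05). The ratio of blmp-1 to dre-1 in RPKM was 0.306 and 0.349 in wild type and 0.347 and 0.284 in the mutant, and these groups overlapped.

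The Grainyhead gene grh-1 (WBGene00001707, chromosome I), whose product accumulates rhythmically and is needed for intact cuticle at each moult, was found at 19.04 and 18.3 CPM in wild-type larvae and 19.9 and 20.4 CPM in mutant larvae. The mutant libraries were higher by little. Its log2 fold change was 0.11 (SE 0.08, edgeR adjusted p = 0.322).

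The difference between replicates followed the same pattern in 5 of the 8 genes. For lin-42, nhr-23, nhr-25, blmp-1 and kin-20, wild type replicate 2 was above replicate 1 and mutant replicate 2 below replicate 1, as was the case for 25% of the 9621 genes that averaged at least 5 CPM. The log2 gap between the mutant libraries (replicate 2 minus replicate 1) was -0.43 for lin-42, -0.29 for nhr-23, -0.26 for blmp-1, -0.19 for nhr-25 and -0.16 for kin-20. Of those 9621 genes, 2.57%, 3.51%, 8.73% and 15.1% had a mutant gap as wide as those of nhr-23, blmp-1, nhr-25 and kin-20. With 5.99 CPM on average, nhr-23 lay close to the floor of 5 CPM and so had fewer reads than most of them. The average of lin-42, 2.24 CPM, was under that floor, and its gap was not set against these better counted genes. For nhr-85, grh-1 and dre-1 the mutant gaps were 0.00, 0.04 and 0.03. The mutant libraries thus differed in 5 of the regulators by up to 0.43 on the log2 scale, in the direction that made replicate 1 farther from wild type.

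**Figure D3:**
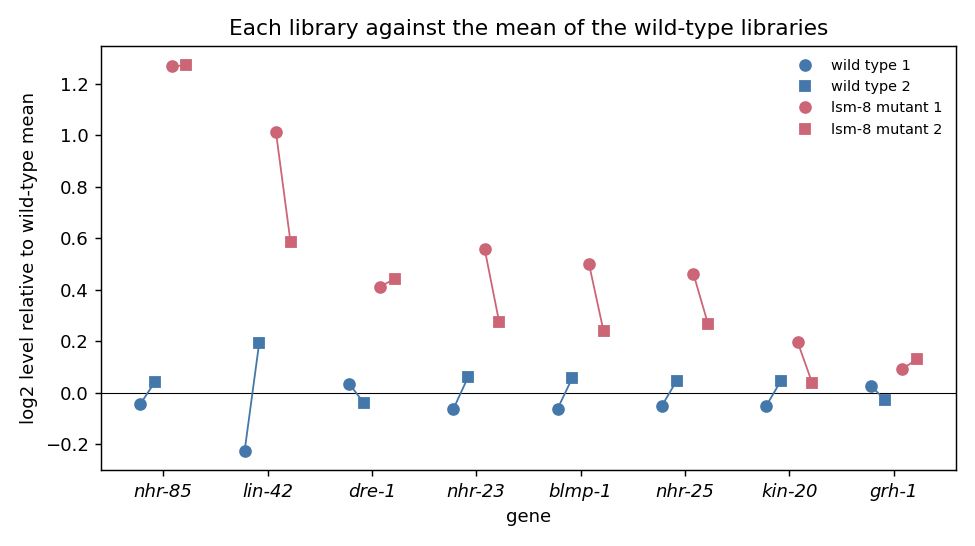
Log2 level of each gene in each library relative to the mean of the wild-type libraries (vertical axis), with lines joining replicates of a group. The red lines slope down from mutant replicate 1 to replicate 2 for lin-42, nhr-23, blmp-1, nhr-25 and kin-20, and are nearly flat for nhr-85, dre-1 and grh-1.

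Among 11 other transcription factor genes of moulting, 6 rose and 0 fell, against 13.5% higher and 14.8% lower over all tested genes, and the median log2 fold change was 0.32. The membrane-bound factor gene myrf-1 rose by 0.53 on the log2 scale (SE 0.08, edgeR adjusted p = 0.000157), with 34.0 ± 3.15 CPM in wild type and 49.2 ± 5.93 CPM in mutant larvae, and the receptor gene nhr-91 rose by 0.66 (SE 0.12, edgeR adjusted p = 0.000287) to 7.26 ± 0.393 CPM. The factor genes bed-3, elt-3, ztf-6 and peb-1, named after their values were seen, rose by 0.53, 0.36, 0.32 and 0.93 in that order. The paralog myrf-2 at 0.07 and the receptor genes nhr-41 at 0.03 and nhr-67 at 0.17 were among the 5 not called. So was mab-10, the only gene of the list with a negative value, at -0.73 (SE 0.48). It was poorly counted, with 0.343 ± 0.166 CPM in wild type and 0.204 ± 0.0145 CPM in mutant larvae.

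Heterochronic genes, a class to which lin-42 itself belongs and which controls when larval cells adopt each fate, had 7 of 12 tested members higher and 1 lower (13.5% and 14.8% over all tested genes), with a median log2 fold change of 0.30. The Argonaute gene alg-1 rose by 0.54 (SE 0.14, edgeR adjusted p = 0.0466), with 87.1 ± 6.74 CPM in wild type and 126 ± 23.1 CPM in mutant larvae, and hbl-1, of a zinc finger factor, was called higher as well (38.1 ± 1.38 CPM in mutant larvae). The gene ain-2, of a microRNA silencing cofactor, fell by 0.19 (SE 0.05). The call of alg-1 was lost with the correction for gene length (edgeR adjusted p = 0.160) and without the filter (0.0672), and ain-2 missed the threshold when wild type replicate 1 (0.0789) or mutant replicate 2 (0.0577) was left out, with library totals (0.0696), with the replicate block (0.0510) and in the deposited log2 values (0.0675, limma). Another 6 genes of the list were not analysed here.

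Downstream of such regulators stand the genes that carry out the moult. Of 25 tested genes of matrix proteins, proteases and trafficking factors needed for moulting, 4 rose and 2 fell, against 28.2% called among all tested genes. Their median log2 fold change was 0.03. Many were poorly counted. With the filter of at least 5 CPM in 2 libraries, 5 of 12 were called, 3 higher and 2 lower, against 4013 of 9733 genes. The apical matrix gene let-653 had 5.01 ± 0.107 CPM in wild type and 8.18 ± 0.417 CPM in mutant larvae (log2 fold change 0.70, SE 0.11, edgeR adjusted p = 9.90e-05), and the fibrillin-related gene fbn-1 rose by 0.39 (SE 0.10). The lipoprotein receptor gene lrp-1 fell by 0.22 (SE 0.07) and the ankyrin repeat gene mlt-3 by 0.32 (SE 0.09). Neither fall was called without mutant replicate 1 (edgeR adjusted p = 0.223 and 0.0798), and mlt-3 was not called without wild type replicate 1 (0.0718). The gene lrp-1 was lost under 6 alternatives in all, the others being leaving out wild type replicate 2 (edgeR adjusted p = 0.0716), library totals (0.0818), upper quartile scaling (0.0583), the replicate block (0.0513) and the deposited log2 values (0.0862, limma). The gene mlt-10, whose transcript marks each moult, had 2.81 ± 0.0695 CPM in wild-type larvae, 2.68 ± 0.225 CPM in mutant larvae, and was not called (log2 fold change -0.07, SE 0.16, edgeR adjusted p = 0.783; 0.01 without mutant replicate 1).

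Cuticle collagen genes of body shape were low in both groups. The summed level of 19 of them was 10.7 and 10.9 CPM in wild-type larvae and 11.4 and 11.7 CPM in mutant larvae. Of 17 tested, 1 rose and 0 fell, where 28.2% of all tested genes were called, and the median log2 fold change was 0.10. Each averaged at most 1.64 CPM, and SEs ran from 0.21 to 0.67, so changes of moderate size could be missed. The share of 28.2% includes better counted genes, so the low count of calls does not show that collagen genes were unchanged. The gene that rose was sqt-3, with 0.528 ± 0.242 CPM in wild-type larvae and 1.22 ± 0.0281 CPM in mutant larvae, and it was not called without wild type replicate 1 (edgeR adjusted p = 0.0507). More rises were called when either wild type replicate 2 or mutant replicate 1 was left out. Without the filter on low counts, 19 were tested, of which 1 was called higher and 1 lower.

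Genes known as partners of the clock-like proteins were tested as well. Among 12 genes of clock homologs and their kinases, such as the Timeless homolog tim-1, 1 rose and 0 fell, while 28.2% of all tested genes were called, and the median log2 fold change was 0.07. The gene that rose was let-92, of a protein phosphatase 2A catalytic subunit (0.29, SE 0.06, edgeR adjusted p = 0.00138). The count depended on the scaling: 3 were called higher with library totals only and 4 with the deposited log2 values. Those settings also called more genes higher over all 16771 tested, 2920 and 2855 in that order, against 2258 with TMM. Under every alternative let-92 was called, and gsk-3 was called too when any 1 library but mutant replicate 1 was left out. Of 8 core genes of the SCF ligase, with which DRE-1 works, 0 were called in edgeR's test, by DESeq2 or by limma voom, and 2 had an unadjusted p under 0.05. Without wild type replicate 2, 1 gene, rbx-1, was called higher. Their median log2 fold change was -0.08. Among them, cul-1 had 0.09 (SE 0.07) and skr-1 had -0.12 (SE 0.06).

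**Figure D4:**
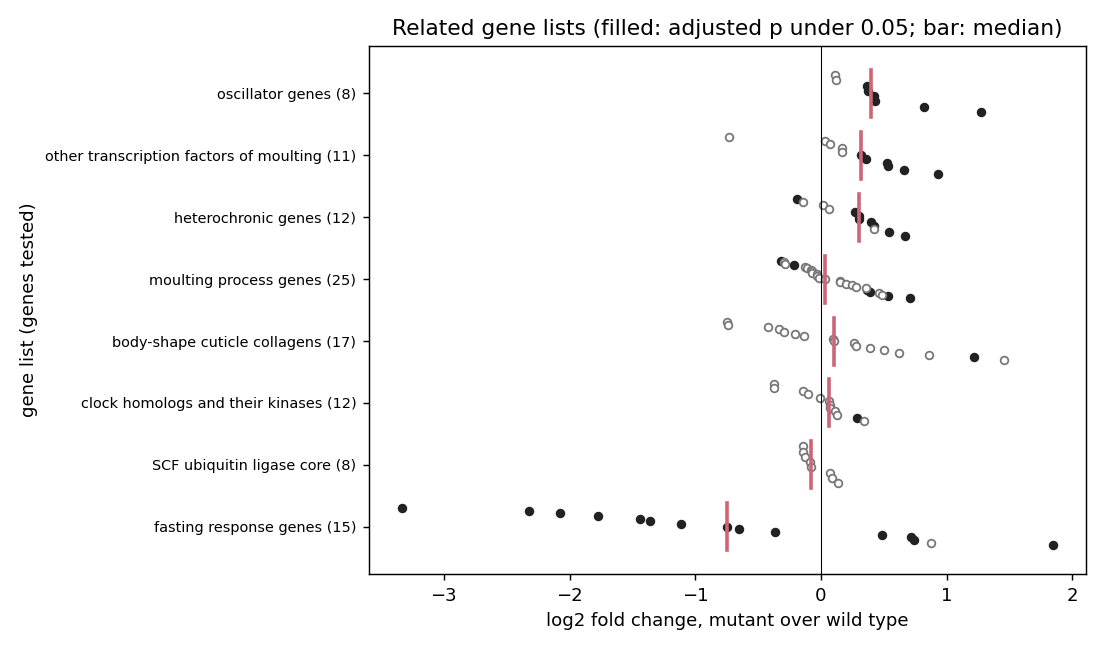
Log2 fold change (horizontal axis, mutant over wild type) of each tested gene in the 8 oscillator genes and in 7 related lists; filled points have an adjusted p under 0.05 and red bars mark medians. Medians lie at 0.40 for the oscillator genes and 0.32 for other transcription factors of moulting, against 0.03 for genes that carry out the moult and -0.75 for fasting response genes.

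Other measures moved with genotype beside these rises. The 15 fasting response genes, among them the glyoxylate cycle gene icl-1, had 10 members lower and 4 higher, where 28.2% of all tested genes were called. Neither this count nor the sum below takes account of the direction in which fasting moves each gene. The summed level of the 15 genes was 4397 and 4486 CPM in wild-type larvae and 1489 and 1700 CPM in mutant larvae. In wild type most of that sum was icl-1, at 3207 and 3316 CPM, against 705 and 841 CPM in mutant larvae. The other 14 genes summed to 1190 and 1171 CPM in wild-type larvae and 784 and 858 CPM in mutant larvae. By the rule for named genes, icl-1 (log2 fold change -2.08, SE 0.08) and acs-2 (-3.34, SE 0.39) fell, and fat-5 (0.72, SE 0.13) and lipl-1 (0.74, SE 0.11) rose. Their part in the rises of the oscillator genes was not tested.

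Of 14 tested epidermis and seam markers, 6 rose and 1 fell, beside 13.5% higher and 14.8% lower over all tested genes. Their median was 0.20 on the log2 scale. Summed levels of the markers were 4124 and 4134 CPM in wild-type larvae and 4502 and 4543 CPM in mutant larvae. Most of each sum was vab-10, with 2716 ± 21.5 CPM in wild type and 3033 ± 46.6 CPM in mutant larvae. The gene vab-10 was not called (edgeR adjusted p = 0.0530). The GATA factor gene egl-18 (0.36, SE 0.07) and the fusogen gene eff-1 (0.37, SE 0.10) rose, and the junction gene ajm-1 fell by 0.20 (SE 0.05). With the replicate block 4 markers were called. Without wild type replicate 2 they also numbered 4, ajm-1 not among them (edgeR adjusted p = 0.0537), and eff-1 was not called without mutant replicate 1 (0.111). The marker nhr-73 had 0 counts in both wild-type libraries and 0 and 2 counts in the mutant libraries, and was not tested. Of 12 tested adult and germ cell markers, 2 rose and 1 fell, a share near the 28.2% called over all tested genes, with summed levels of 36.1 and 36.9 CPM in wild-type larvae and 39.3 and 40.1 CPM in mutant larvae. The 7 early embryo markers summed to at most 3.09 CPM in any library, and 1 of 4 tested rose. That call was lost without mutant replicate 1, and also in the DESeq2 Wald test of all 4 libraries. The part of these markers in the result was not tested.

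The fold change between the genotypes also varied with gene length. The 8 genes had a median width of 2584.5 bases, against 1244 bases over tested genes, and the median log2 fold change of genes that averaged at least 5 CPM was -0.11 among the shortest 20% and 0.06 among the longest 20%. Among these better counted genes, 10.1% of the shortest 20% were called higher, against 29% of the longest 20%. That longest part began at 2537 bases, a width exceeded by nhr-23, nhr-25, kin-20, dre-1 and the less counted lin-42. Heterochronic genes were long as well, with a median width of 3319.5 bases. For well counted genes of such width, the 13.5% called higher over all tested genes was a low background. Corrected for length, 6 of the 8 oscillator genes were again called, and nhr-85 and lin-42 had log2 fold changes of 1.27 and 0.78. The smaller rises became smaller still, at 0.37 for nhr-23 (edgeR adjusted p = 0.0446), 0.36 for dre-1, 0.35 for blmp-1 and 0.33 for nhr-25. The median over the 8 genes was 0.35 with the correction and 0.40 without it.

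The genes most like lin-42 over the 4 libraries, among 9621 genes of at least 5 CPM, were K06A9.1, T28A11.2 and WBGene00020848. Likeness was the Euclidean distance between log2 CPM values centred on their mean, and it was 0.153, 0.190 and 0.199. The gene K06A9.1 reached 9.37 and 11.3 CPM in wild-type larvae and 22.9 and 15.9 CPM in mutant larvae, with mutant replicate 1 highest as for lin-42. The genes most like kin-20 were frpr-18, sea-2 and WBGene00008913, at distances of 0.00915, 0.0135 and 0.0150. With 4 libraries, such likeness is a description only.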

How the data were processed

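Total RNA of sorted L1 larvae was sequenced with single-end reads of 50 bases from a stranded kit, per the labels' protocols. The deposited raw counts are whole numbers of reads per gene. The deposited log2 table equals, from its values, the log2 of the count scaled to the mean library total plus 8 (largest difference 5.33e-14). The submitters' processing notes name Bowtie, edgeR 3.24.0 and the build ce10. How reads were counted, against which annotation and with which strand setting, is not given in the sources used here. Library totals were 54419838 and 50755251 counts (wild type) and 101230177 and 90749329 counts (mutant), so the mutant libraries were 1.83 times as deep. A count of 0 allows up to 3 counts, or 0.0563 and 0.0600 CPM in wild type and 0.0293 and 0.0323 CPM in the mutant, covering counting error only.

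Names, chromosomes and exons came from reference tables and the WBcel235 annotation, whose build differs from ce10, so no coordinate is given. Of 20392 genes, 19182 had a name.

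All genes were fitted with edgeR 4.0.16 (R 4.3.3; TMM scaling, filterByExpr, robust quasi-likelihood F-test on genotype), with Benjamini-Hochberg adjustment over 16771 genes and calls at an adjusted p under 0.05. Each SE is the absolute log2 fold change over the square root of F. The fit was tested on simulated data. Alternatives used DESeq2 1.42.0, limma 3.58.1, other scalings and filters, the replicate number as a block, a correction for gene length, the deposited log2 values and each library left out in turn.

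The oscillator genes and the lists were chosen with earlier results of these data known. Genes named are lsm-8, the 8 oscillator genes, and from each list up to 2 called genes with the largest rise and 2 with the largest fall at a mean of at least 5 CPM; other genes were named after their values were seen. Replicate libraries differed beyond sampling noise (chi-square per degree of freedom 8.26 in wild type and 14.8 in the mutant), so each counted as 1 replicate. No motif search was made.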

Additional observations from a re-analysis of the deposited data

How the results depend on the processing

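All 8 oscillator genes had a positive log2 fold change under every alternative run in which it was tested. The same 6 were called under each, with 3 exceptions. These were leaving out mutant replicate 1, the replicate block, and the filter of at least 5 CPM in 2 libraries, which left out lin-42 and called the other 5. For nhr-85 the value ran from 1.23 to 1.32, for dre-1 from 0.36 to 0.48 and for nhr-25 from 0.27 to 0.46, all called; kin-20 (0.04 to 0.19) and grh-1 (0.08 to 0.16) were called under none. Leaving out 1 library at a time, the count of oscillator genes called ran from 3 (without mutant replicate 1, where 4025 of 16512 tested genes were called) to 6, the value of lin-42 from 0.587 to 1.04, that of nhr-23 from 0.27 to 0.56 and that of blmp-1 from 0.24 to 0.50. Without mutant replicate 1 the mutant arm had 1 library, assumed to vary like the others. With the replicate number as a block, nhr-23 had 0.42 and was not called (adjusted p = 0.0503), and 5 of 8 genes were called, as were 3655 of all genes against 4737. The replicate numbers are not said to pair the libraries, and over 9621 genes the differences of replicates 1 and 2 in the groups had r = -0.11. A crossed replicate block, chosen after seeing the data, called 6 of 8 and 5652 of all genes. Scaled by library totals only, 60.5% of calls over all genes were higher, against 47.7% with TMM (60.8% in the deposited log2 values); upper quartile scaling gave 56.6%. Of the 8 genes, lin-42 and nhr-23 had the fewest wild-type counts, 74 and 93 for lin-42 and 261 and 267 for nhr-23. The value of mlt-10, never called, ran from -0.162 to 0.0132, its sign turning without mutant replicate 1. For rbx-1 it ran from -0.0831 (without wild type replicate 1) to 0.227 (without wild type replicate 2), and was below 0 also without mutant replicate 1.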
